A study of Apostichopus japonicus with 12 samples.

Results

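Globins are heme proteins that bind oxygen and other small gases at the iron of the heme. In several sea cucumbers a hemoglobin is carried by cells of the coelomic fluid and the water vascular system, whereas in vertebrates the hemoglobin of red blood cells, the myoglobin of muscle and the neuroglobin of nerve cells are separate proteins. Androglobin is a large member of the family in which, in vertebrates, a globin domain is joined to a calpain-like protease domain. Its messenger is found in vertebrates mainly in testis and in tissues with motile cilia.

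The globins described here were all gene models of the sea cucumber *Apostichopus japonicus* whose best Swiss-Prot match carried a name containing globin, without haptoglobin and uteroglobin. This rule found 2 of 26461 models, and it used names only, not expression. RNA of the intestine was sequenced in 12 libraries, 3 in each of 4 groups, and each animal had been held for 6 h under its condition. Control animals were kept at 18 °C. Heat alone meant 26 °C with dissolved oxygen at 7 mg/L (high temperature), oxygen shortage alone meant 18 °C with 3 mg/L (low oxygen), and animals given both stressors were at 26 °C with 3 mg/L (combined). The oxygen level of the control is uncertain: the design text gives 3 mg/L, the level of the low oxygen group, although the groups are named as control and low oxygen. The groups were used as labelled. If the control was at 3 mg/L, its comparison with the low oxygen group, the oxygen effect and the interaction do not contrast oxygen levels as their names say. RNA came from single animals. Tanks are not described, so p-values measure only the spread between these samples. All values are FPKM, the fragments assigned to a model scaled by its exon length in kilobases and by library size, as the authors deposited them.

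The first model, evm_TU_Chr8_855, had its best match in globin C of the coelomic cells of *Molpadia arenicola*, another sea cucumber, and carried the Pfam globin domain. It lies on the minus strand of chromosome 8 from 26263535 to 26319724 in the coordinates of the deposited annotation, whose genome build the labels and headers do not name. Its 6 exons hold 945 bases, of which 714 are coding (238 codons) and 231 are 5′ untranslated. The coding sequence was annotated as incomplete at the 3′ end and no 3′ untranslated region was annotated. Introns made up 98.3% of the span of 56190 bases, and the longest intron was 27882 bases. The span was longer than that of 94.7% of the 19828 annotated models, whose median was 9141.5 bases, although the exon number equalled their median of 6. The nearest models were LUC7L, an RNA-binding protein gene, 10046 bases away on the plus strand, and an unnamed model 27986 bases away.

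The second model, evm_TU_Chr19_97, had its best match in human androglobin. The only Pfam domain listed for it was the calpain family cysteine protease domain, and no globin domain was listed, so its place among the globins rests on the name of its match. It lies on the minus strand of chromosome 19 from 3447563 to 3500446, a span of 52884 bases. Its 41 exons, more than in 98.8% of annotated models, hold 5298 bases, of which 5076 are coding (1692 codons). Its neighbours were Rab7b, a small GTPase gene of the endosomal pathway, at 7221 bases and an unnamed model with a WD-repeat protein domain at 11905 bases. No other model overlapped either globin model, so the absence of a named strand-marking step in library preparation does not mix their fragments with those of another annotated gene.

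**Figure D1:**
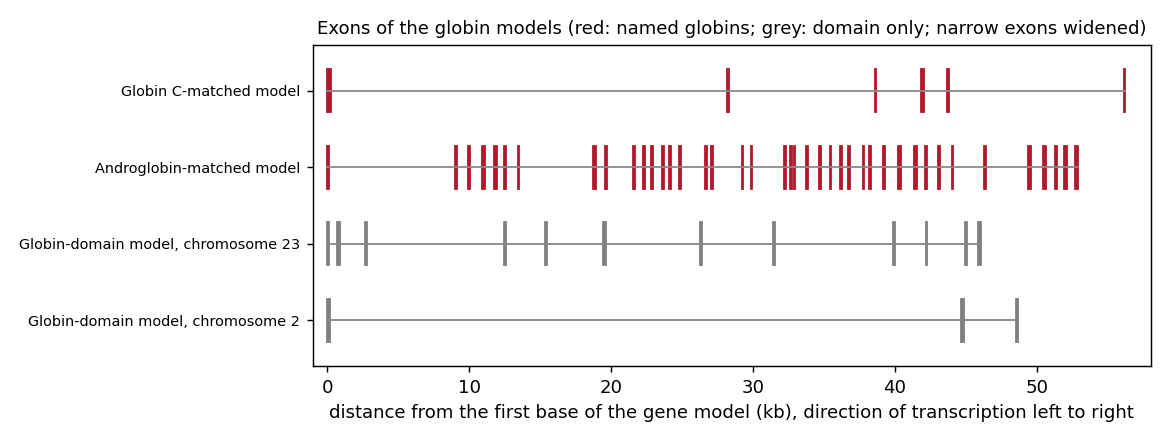
Exons (boxes) and introns (lines) of the 2 named globin models and of 2 models that carry a globin domain without a Swiss-Prot name, drawn against the distance in kilobases from the first base of each model, in the direction of transcription; narrow exons are widened to stay visible. The globin C-matched model has 6 exons spread over 56190 bases, and the androglobin-matched model has 41 over 52884 bases.

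No model analysed here was named hemoglobin, myoglobin, neuroglobin, cytoglobin, hemocyanin or hemerythrin (0 models each among the 12030 with a Swiss-Prot match). A globin domain was listed for 3 models in all. Besides the globin C-matched model these were evm_TU_Chr23_253, which also carries a glycolipid transfer protein domain, and evm_TU_Chr2_1005. Neither has a Swiss-Prot name, so both fall outside the rule. The first averaged between 35.1 and 60.8 FPKM in the 4 groups. The second had only 1 to 25 fragments in a library and ranged from 0.134 to 4.57 FPKM.

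Libraries held 8146906 to 10855050 fragments. The library size behind the deposited FPKM was 0.529 and 0.526 times the total in combined 1 and combined 3, against 0.935 to 1.58 times in the other 10 libraries, so these 2 libraries have higher FPKM for the same share of fragments. The 10 most abundant models took 44.0% and 43.8% of their fragments, against 19.8% to 41.1% elsewhere. Levels of genes other than the 2 named globin models are given on the deposited scale only. Of 22 models for markers of intestinal epithelium, 18 passed the filter of 1 FPKM in 3 libraries. The most abundant was apolipoprotein B, a lipoprotein component made by absorptive cells, at a mean of 2461 FPKM, followed by aminopeptidase N, a brush border enzyme, at 111 FPKM. Maltase-glucoamylase, an intestinal disaccharidase, averaged 67.8 FPKM, and the intestinal transcription factor Cdx4 averaged 2.81 FPKM. In whole tissue, fewer cells of a type and less RNA per cell cannot be told apart.

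The globin C-matched model was expressed in every library and was among the more abundant transcripts of the intestine. Its level averaged above 91.7% of the 15615 models tested, those with at least 1 FPKM in at least 3 libraries. In the 3 control libraries it stood at 15.4, 26.3 and 74.5 FPKM. In the high temperature group it stood at 25.7, 28.3 and 21.1 FPKM. Both the lowest and the highest of the 12 libraries were thus controls, and the heated animals lay between them. In the low oxygen group the level was 31.9, 59.9 and 21.6 FPKM. In the combined group it was 19.1, 25.4 and 18.0 FPKM. All 3 combined libraries were below control 2 and control 3 and above control 1, and the low oxygen libraries all lay within the range of the controls.

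The order of group means for this model was control (38.7 ± 31.4 FPKM, SD, n = 3), low oxygen (37.8 ± 19.8), high temperature (25.1 ± 3.63) and combined (20.8 ± 3.98). The ranges of each neighbouring pair in this order overlapped. The wide control group rested on well-counted values, since exact Poisson 95% intervals for counting error were 12.7 to 18.5 FPKM in control 1 and 69.8 to 79.4 FPKM in control 3. Counting error is therefore far smaller than the distance between these animals. The model was counted on 82 to 936 fragments per library and ranked above 90.3% to 98.1% of all models within a library.

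The androglobin-matched model was low but detected in every library, on 54 to 376 fragments, and reached 1 FPKM in 11 of 12. In control libraries it stood at 2.06, 2.55 and 0.908 FPKM. Under high temperature it stood at 3.39, 2.13 and 2.52 FPKM, with the lowest heated library between the 2 higher controls. Under low oxygen it was 5.46, 2.75 and 1.71 FPKM. In the combined group it was 8.59, 1.08 and 7.41 FPKM. Combined 1 and combined 3 were the highest of all 12 libraries, and combined 2 was the second lowest after control 3. The exact Poisson interval of combined 2, 0.81 to 1.41 FPKM, overlaps that of control 3, 0.70 to 1.16 FPKM.

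Group means of the androglobin-matched model ran from combined (5.69 ± 4.04 FPKM, SD, n = 3) through low oxygen (3.30 ± 1.94) and high temperature (2.68 ± 0.644) to control (1.84 ± 0.842), with overlapping ranges between neighbours. Combined 1 and combined 3 are the libraries with the low scaled library size. When the FPKM of every library were rescaled to the same total, the highest mean was that of low oxygen at 10.6, above high temperature at 7.62, combined at 7.48 and control at 5.05. The lead of the combined group was therefore present on the deposited scale and absent on the rescaled one. For the globin C-matched model the rescaled means were 122 under low oxygen, 110 in control, 70.0 under high temperature and 33.5 in the combined group. On that scale its 3 combined libraries, at 26.0, 53.9 and 20.7, all lay below the 3 heated libraries, at 61.5, 66.7 and 81.8. So did those of 19.9% of all tested models, and rescaling moves the median log2 difference of all tested models between these groups to -0.61.

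**Figure D2:**
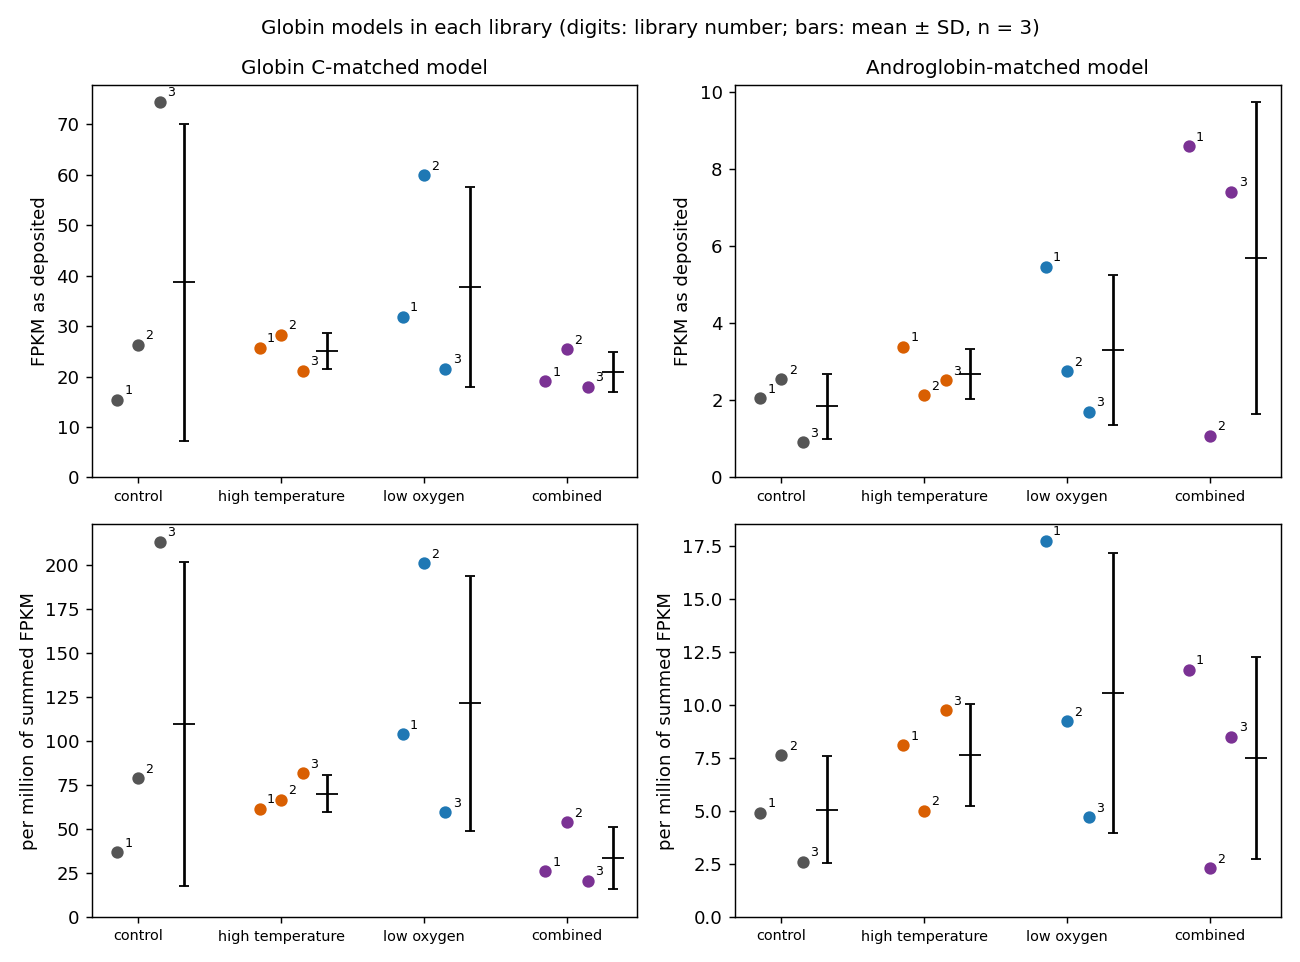
Levels of both globin models in each of the 12 libraries by group, as deposited FPKM (upper row) and rescaled to equal totals per library (lower row); points are libraries with their number, and bars are the group mean ± SD (n = 3). The globin C-matched model spans 15.4 to 74.5 FPKM among the controls alone, and the androglobin-matched model is highest in combined 1 and combined 3, at 8.59 and 7.41 FPKM.

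FPKM is scaled by exon length, so the levels of the 2 models can be set side by side. Neither model has an annotated 3′ untranslated region, so the ratios hold for the annotated exons only. Globin C exceeded the androglobin-matched model in all 12 libraries. The ratio ran from 2.23 in combined 1 and 2.43 in combined 3 to 82.0 in control 3, while combined 2 had a ratio of 23.6. The ratio does not depend on library size, so the contrast between combined 2 and the other combined libraries remains on any scaling. Over the 12 libraries the log2 levels of both models had Pearson's r of -0.392 and Spearman's rho of -0.210, given as a description without a p. Without combined 1 and combined 3, r was -0.169.

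Whether heat, low oxygen or both change globin transcripts was asked with limma on log2(FPKM + 1), fitted to all tested models and all 12 libraries, with two-sided p-values adjusted by Benjamini-Hochberg over all models and a threshold of 0.05. Neither globin model passed in any of 9 comparisons, and neither had an unadjusted p under 0.05 in this limma fit. Other settings did give such values for combined against control, among them 0.0403 for globin C in limma after rescaling to equal totals. For the androglobin match limma gave 0.00298 without combined 2. Neither passed after adjustment. A count-weighted limma fit (voom) on fragments recovered from the FPKM also called 0. Differences below are on the log2(FPKM + 1) scale, which understates changes of low models such as the androglobin match.

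Under high temperature, 0 of 2 globin models changed, where 0.0704% of all tested models did. For the globin C match the difference from control was -0.32 (SE 0.53, adjusted p = 0.980 in limma), with a 95% interval from -1.47 to 0.83. The androglobin-matched model differed by 0.41 (SE 0.56, adjusted p = 0.971 in limma), with an interval from -0.82 to 1.63. Without control 3, the difference of the globin C-matched model was 0.29.

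Under low oxygen, again 0 of 2 models changed, against 0.00640% of all tested models. For the globin C match the difference from control was 0.14 (95% interval -1.01 to 1.29, adjusted p = 0.969 in limma). The androglobin-matched model differed by 0.55 (95% interval -0.67 to 1.78, adjusted p = 0.878 in limma). For the globin C match the direction rested on single animals, since the difference ranged from -0.35 to 0.75 when libraries were left out in turn and was below 0 without control 1 or without low oxygen 2.

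Under both stressors together 0 of 2 models changed, against 0.788% of all tested models. The estimate for the globin C match was -0.58 (SE 0.53, 95% interval -1.73 to 0.57, adjusted p = 0.662 in limma). The androglobin-matched model had its largest difference from control here, 1.005 (SE 0.56, 95% interval -0.22 to 2.23, adjusted p = 0.458 in limma). Without control 3 the globin C difference was 0.031. The androglobin difference rested on 2 of the 3 combined animals. Leaving out 1 library at a time gave 0.61 to 1.71, with the highest value without combined 2 (adjusted p = 0.0815 in limma). Leaving out both combined 1 and combined 3, a setting chosen after the data were seen, gave -0.40. After rescaling to equal totals the differences were -1.41 for globin C (adjusted p = 0.196 in limma) and 0.32 for androglobin (adjusted p = 0.704), where the median of all tested models was -0.61. Groups overlapped for both models in each comparison with control, while 14.1%, 16.2% and 14.4% of tested models did not overlap under high temperature, low oxygen and both.

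**Figure D3:**
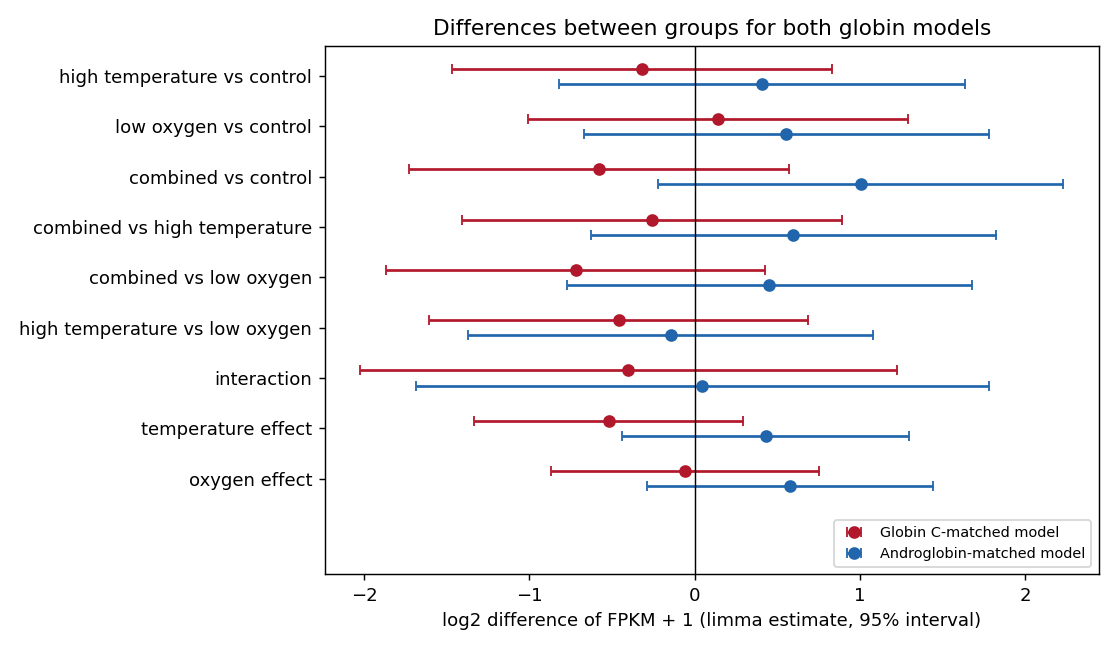
Differences in log2(FPKM + 1) between groups for both globin models, with points for the limma estimate and bars for its 95% interval; the interaction is the effect of heat under low oxygen minus its effect otherwise. Every interval includes 0, and the estimate farthest from it is 1.005 for the androglobin-matched model, combined against control.

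The 4 groups also allow each stressor to be averaged over the other. Averaged over oxygen, the temperature effect was -0.52 for the globin C-matched model (95% interval -1.33 to 0.29, adjusted p = 0.591 in limma) and 0.43 for the androglobin-matched model (-0.44 to 1.30, adjusted p = 0.687). Of all tested models, 0.455% passed in this comparison. The low oxygen effect averaged over temperature was -0.06 (-0.87 to 0.75, adjusted p = 0.991) and 0.58 (-0.29 to 1.44, adjusted p = 0.827), where 0.0704% of tested models passed. The interaction, which asks whether heat acts differently under low oxygen, was -0.40 (SE 0.75, adjusted p = 0.917) and 0.04 (SE 0.80, adjusted p = 0.994), and 0.0512% of models passed. Among the treated groups, the globin C-matched model differed by -0.72 between combined and low oxygen and by -0.26 between combined and high temperature, and the androglobin-matched model by 0.45 and 0.60. Neither comparison called a globin model, while 0.423% and 0.218% of tested models passed. The groups overlapped for both models in these comparisons too, where 15.6% and 9.50% of tested models did not, and likewise between all heated and unheated libraries (0.993%) and between all libraries with and without low oxygen (0.237%).

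As for the median tested model, the animals within a group accounted for most of the variation of both models. With 4 groups of 3 libraries, some of the variance falls between groups even without any effect. Groups held 20.0% of the variance of the globin C-matched model and 26.2% of that of the androglobin-matched model, against a median of 30.5% over tested models. Their within-group SD, 0.69 and 0.74 on the log2 scale, was near the median of 0.62.

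Globins bind heme, and none of the genes of heme synthesis passed in the comparisons with control (0 of 12 tested). ALAS, the first enzyme of the pathway, is represented by alas2, which averaged 26.7 ± 11.2 FPKM in control, 21.4 ± 1.41 under high temperature, 25.7 ± 1.67 under low oxygen and 31.6 ± 5.10 in the combined group. Tmem14c, a mitochondrial transporter needed for heme synthesis in mouse, stood at 14.8 ± 2.76 FPKM in control and 27.3 ± 13.3 in the combined group. The median difference of the list from control was 0.12, -0.02 and 0.03 under high temperature, low oxygen and both, against -0.01, 0.01 and -0.05 for all tested models.

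Genes of heme breakdown and transport had lower medians, at -0.90, -0.34 and -0.62, with 8, 7 and 8 of 9 tested genes below control, but 0 passed. Flvcr2, a membrane transporter of the heme exporter family, stood at 9.89 ± 0.842 FPKM in control, 4.61 ± 0.308 under high temperature, 11.99 ± 2.09 under low oxygen and 4.24 ± 3.13 in the combined group. PGRMC1, a heme-binding membrane protein, stood at 29.1 ± 8.98 FPKM in control and 22.2 ± 18.5 in the combined group. No model analysed here was named heme oxygenase.

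Iron handling genes had medians of 0.46, 0.40 and 0.69, and 0 of 14 tested passed. Soma ferritin, the iron storage protein, was far more abundant than any globin, at 9083 ± 4363 FPKM in control and 17116 ± 9179 in the combined group. Both means are on the deposited scale. On it the FPKM of all models summed to 333494 to 418962 in control and to 471341 to 871219 in the combined group. A model matched to ovotransferrin, an iron-binding protein of the transferrin family, stood at 62.6 ± 21.7 FPKM in control, 178 ± 50.7 under high temperature, 999.2 ± 850 under low oxygen and 802 ± 648 in the combined group. The spread of the last 2 groups is almost as large as their means. Pdk2 and Pdp2, which act on pyruvate dehydrogenase, entered this list through its name pattern and do not handle iron.

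The list of globin reduction and nitric oxide genes, drawn by symbol, had medians of -0.10, 0.02 and 0.14, and 0 of 14 tested passed. Cyb5r3, which keeps hemoglobin reduced in vertebrate red cells, stood at 43.6 ± 1.90 FPKM in control, 28.1 ± 6.94 under high temperature, 23.1 ± 1.80 under low oxygen and 24.5 ± 6.67 in the combined group (adjusted p = 0.799, 0.720 and 0.290 in limma). The list also holds genes that neither reduce globins nor make nitric oxide, among them MsrA and MSRB1, which repair oxidised methionine. The more abundant of 2 MsrA models stood at 95.3 ± 11.7 FPKM in control and 163 ± 33.7 under low oxygen. In the oxygen sensing list 0 of 8 passed. Its most abundant gene was hif1a, the oxygen-regulated transcription factor subunit, at 115 ± 51.7 FPKM in control, 201 ± 33.7 under high temperature, 183 ± 122 under low oxygen and 392 ± 159 in the combined group (adjusted p = 0.171 for the last in limma). EGLN1, the prolyl hydroxylase that marks HIF for degradation, stood at 25.7 ± 29.7 FPKM in control and 44.6 ± 39.3 in the combined group.

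Markers tested were 18 of epithelium, 11 of muscle, 11 of neurons, 8 of connective tissue and 11 of blood-type cells or coelomocytes. Of these, 1 passed in a comparison with control. This was SPARC, a collagen-binding matrix protein, which rose in the combined group from 3.75 ± 1.60 to 15.5 ± 3.56 FPKM (log2 difference 1.84, SE 0.38, adjusted p = 0.049 in limma). In that comparison 0.788% of all tested models passed, so 1 call says little about the markers. The 8 tested connective tissue markers had a median difference of 1.82 and the 11 muscle markers one of 1.15 in the combined group, against -0.05 over all tested models. The 18 epithelial markers had a median of -0.73, with 4 of 18 above control. On the deposited scale their summed FPKM, which follows the most abundant markers, went the other way. Over all 22 epithelial models it was 1817 to 2520 in control and 2644 to 3913 in the combined group. The summed FPKM of all models was also higher in the combined group, at 471341 to 871219 against 333494 to 418962 in control. Marker sums were not rescaled to equal totals, so this direction holds for the deposited scale only. The part of these cell types in the combined globin levels was not tested. For the globin C match, whose namesake is found in coelomic cells, the blood-type and coelomocyte markers are the closest comparison. Their summed level on the deposited scale was 286 to 485 FPKM in control, 536 to 697 under high temperature, 485 to 927 under low oxygen and 635 to 2858 under both stressors. Of the 15 models, 0 were at 0 in every library. Of the 11 tested, 7 were above control in the combined group, with a median difference of 0.45, and complement C3, an immune protein, made up much of the sum at a mean of 479 FPKM. Their mean log2 level in combined 3, at 3.87, was below that in control 1, at 3.95. With this mean level the globin C match had r of -0.488 over the 12 libraries (adjusted permutation p = 0.248). Spearman's rho was -0.126 (adjusted permutation p = 0.826), and r was 0.211 without control 3 and combined 1. What part of the globin C level comes from these cells was not tested.

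Androglobin is tied to motile cilia in vertebrates, so the genes of cilia and flagella were set beside it. This list of 109 models was drawn up after the globin names and values had been seen and is a description only. None of its 95 tested genes passed in a comparison with control, but 89, 83 and 89 were above control under high temperature, low oxygen and both, with medians of 0.73, 0.38 and 1.01. Over all tested models, 49.6%, 50.8% and 47.2% were above control. The control mean was lowered by control 3, whose mean log2 list level was 1.08, against 1.86 and 1.75 in control 1 and control 2. The low oxygen libraries stood at 1.86, 1.86 and 2.04. RSPH4A, a radial spoke protein of motile cilia, stood at 5.69 ± 3.56 FPKM in control, 13.6 ± 5.50 under high temperature, 11.1 ± 4.95 under low oxygen and 33.9 ± 40.8 in the combined group. Hydin, an axonemal protein, stood at 0.68 ± 0.32 FPKM in control and 2.87 ± 2.66 in the combined group. In combined 1 the mean log2 level of the list was 3.70, against 1.83 and 2.10 in the other combined libraries.

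Across the 12 libraries, the androglobin-matched model correlated with single cilia genes at a median Pearson's r of 0.616, with 89 of 95 positive. Over all tested models the median was -0.022 and 48.2% were positive. The globin C-matched model had a median r of -0.457 with the same genes, with 5 of 95 positive, against -0.001 and 50.0% over all tested models. With the mean log2 level of the list, androglobin had r of 0.697 and rho of 0.594. Control 3, with the lowest list level at 1.08, and combined 1, with the highest, carried much of this, and r was 0.231 without them. The corresponding values for globin C were r of -0.537 and rho of -0.503, with r of -0.217 without the same libraries. As deviations from group means, with all 12 libraries kept, r was 0.615 for androglobin and -0.424 for globin C. The libraries share group, depth and scaling, and cilia genes move together, so these values describe the 12 animals and carry no p.

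**Figure D4:**
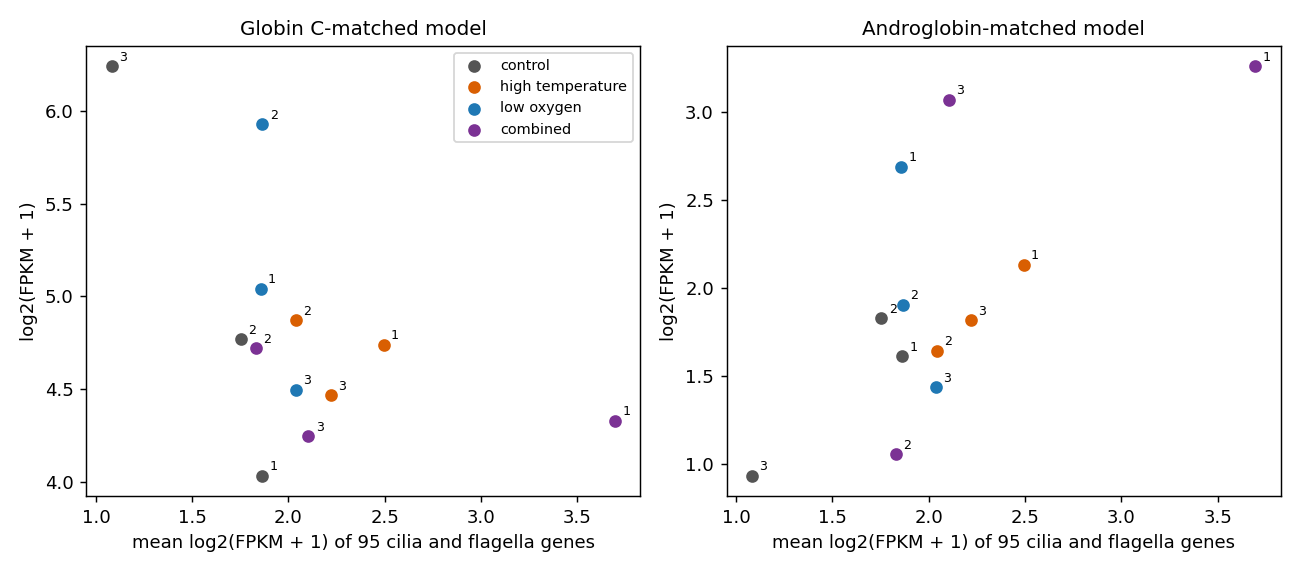
Log2(FPKM + 1) of each globin model against the mean log2(FPKM + 1) of 95 cilia and flagella genes in the 12 libraries, coloured by group. The androglobin-matched model rises with the list (r of 0.697, or 0.231 without control 3 and combined 1), and the globin C-matched model tends the other way (r of -0.537, or -0.217 without the same libraries).

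Both globin models were also set against the mean levels of the 10 other lists, which made 20 relations over 12 libraries, chosen after the data were seen. By Pearson's r 0 of 20 passed after Benjamini-Hochberg adjustment, and by Spearman's rho 3 passed (permutation tests with two-sided p). The permutations shuffled all 12 libraries without regard to group, although libraries share group and scaling effects. These p-values therefore also take in differences between groups and do not measure a relation between animals alone. The count by Spearman was 0 to 4 when 1 library was left out, and 0 with a pseudocount of 5, with a filter at 5 FPKM or without combined 1 and combined 3. The globin C-matched model ran against the globin reduction and nitric oxide list (rho -0.818, adjusted permutation p = 0.0398; r -0.714, adjusted permutation p = 0.0717) and against muscle markers (rho -0.776, adjusted permutation p = 0.0413; r -0.633, adjusted permutation p = 0.105). The androglobin-matched model ran against epithelial markers (rho -0.755, adjusted permutation p = 0.0413; r -0.734, adjusted permutation p = 0.0717). Without the 2 libraries farthest from the median of each list, r was -0.458, -0.552 and -0.506. Within groups, as deviations from group means, r was -0.846, -0.659 and -0.664.

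The named genes whose pattern over the 12 libraries was most like that of each globin model were sought among 9166 tested genes with a symbol, by Pearson's r of log2 levels. For the globin C-matched model they were PON2 (r of 0.907), a paraoxonase, CAT (0.903), which breaks down hydrogen peroxide, and SPHK2 (0.901), a sphingosine kinase. CAT, like the globin C match, was highest in control 3, at 279 FPKM, and stood at 58.6 and 100.4 FPKM in control 1 and control 2. PON2 averaged only 0.854 FPKM. For the androglobin-matched model they were ALOX5 (0.943), a lipoxygenase, GTF2H3 (0.920), a subunit of a general transcription factor, and fibcd1-a (0.911), a fibrinogen-domain protein. ALOX5 stood at 4.88 and 2.99 FPKM in combined 1 and combined 3, at 0.373 in combined 2 and at 0.048 in control 3. Its highest libraries and its lowest library were those of the androglobin match. As the highest of 9166 values, these correlations carry no test.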

How the data were processed

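Intestinal RNA of 12 animals was sequenced by the authors, and the deposited table gives FPKM per gene model with Swiss-Prot names and Pfam domains, per the file headers. For aligner, counter and genome build, no name is given in the sources used here. FPKM times model length gave whole fragments for 100.0% of values (tolerance 1e-06). The implied library sizes equalled median-of-ratios size factors over 12900 genes times the geometric mean of totals, which no header or label records.

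Models with at least 1 FPKM in at least 3 libraries (15615) were analysed as log2(FPKM + 1) in R 4.3.3 with limma 3.58.1, with a mean per group over 12 libraries, eBayes with a variance trend, and adjustment over all models per comparison. Python 3.11.15, numpy 2.4.6, pandas 2.3.3, scipy 1.17.1 and matplotlib 3.10.9 served for the rest. The fit was also run on simulated data with changes far larger than the globin differences, so that run says nothing about differences of this size. The globin models, lists and tests were chosen with earlier results of these data known. Values are given for every globin model. Other genes were named as the 2 of each list with the highest mean FPKM, plus any past the threshold in a comparison with control, and the 3 most similar patterns per globin model; the cilia genes and further markers named were picked after their values were seen. Alternatives were pseudocounts of 0.1 and 5, no filter, a filter at 5 FPKM, rescaling to equal totals, voom on recovered fragments, library weights, fits on the groups compared, a replicate block and leaving out each library.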

Additional observations from a re-analysis of the deposited data

How the results depend on the processing

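Under every setting run, 0 globin models were called in each of the 9 comparisons. Of 312 recomputed differences, 29 turned sign. Leaving out combined 1 and combined 3 together, chosen after the data were seen, turned the androglobin differences of combined from control (-0.40), high temperature (-0.81) and low oxygen (-0.96), its interaction (-1.36), temperature effect (-0.27) and oxygen effect (-0.13), and the globin C differences of combined from high temperature (0.028) and of the oxygen effect (0.084). Rescaling to equal totals moved the median of all models in combined against control from -0.046 to -0.61. It turned androglobin in combined against high temperature (-0.13), against low oxygen (-0.40) and in the interaction (-0.85). The androglobin interaction was also -0.13 with pseudocount 0.1 and -0.32 with voom, and the globin C oxygen effect was 0.12 with library weights. The cause was not tested.

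Leaving out each library gave, for globin C, -0.81 to 0.29 (high temperature against control), -0.35 to 0.75 (low oxygen), -1.07 to 0.031 (combined), -1.01 to 0.089 (interaction) and -0.30 to 0.25 (oxygen effect), and for androglobin -0.43 to 0.19 (high temperature against low oxygen) and -0.36 to 0.75 (interaction). Leaving out 1 library moved the list relations past the threshold to 0 to 2 (Pearson) and 0 to 4 (Spearman). They were 2 and 0 with pseudocount 5, 4 by Pearson when rescaled, and 0 by Spearman with the filter at 5 FPKM or without both combined libraries. The correlation of both models ranged from -0.49 to -0.14.

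Replicate numbers did not pair the libraries (correlations of same-numbered deviations -0.170 to 0.178). With the replicate block, 0 globin models were called and the combined differences were -0.58 and 1.005. Calls over all models in combined against control were 123, but 30 when only these libraries were fitted, 57 by voom, 74 with pseudocount 0.1 and 50 to 212 without 1 library. With library weights, high temperature against control had 205 calls in place of 11, and low oxygen 185 in place of 1. With 3 animals a group, differences inside the printed intervals were not resolved.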
